A study of Mus musculus with 16 samples.

Results

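The SLC25 family of mitochondrial carriers was measured as messenger RNA in the left ventricle of 16 mice, with and without extra nitric oxide synthase 3 in the cardiomyocytes and with and without pressure overload. Members were taken by name: each non-control probe whose gene name in the array files begins with Slc25a, which gave 53 probes for 32 genes. The probe with the highest mean log2 processed signal over the 16 arrays stood for its gene. Of the 32 genes, 28 rose well above background on 4 or more arrays of 16 and were tested among 15667 genes. The other 4 members did not pass. Slc25a21, the oxoadipate carrier, and Slc25a31, an ADP/ATP carrier of germ cells, were above background on 0 arrays, and Slc25a18, a glutamate carrier, and Slc25a34, whose substrate is not settled, on 2 arrays each. They receive no fold change.

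Most SLC25 proteins sit in the inner mitochondrial membrane, with a few in other membranes, and exchange small molecules between the cytosol and the matrix. They bring in phosphate and ADP and take out ATP, move the keto acids and amino acids of the malate-aspartate shuttle, carry acylcarnitines to the enzymes of fatty acid oxidation, and supply the matrix with cofactors and iron. The heart depends on oxidative phosphorylation, so carriers for ADP, ATP and phosphate are among its abundant membrane proteins.

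The transgenic mice (NOS3-TG) carried alpha-MHC-NOS3, a nitric oxide synthase 3 transgene driven in cardiomyocytes by the promoter of alpha-myosin heavy chain. Wild-type (WT) littermates were the controls, and all mice were on a C57BL/6 N background and matched for age, which the labels do not state in weeks. Mice of each genotype were either intact (baseline) or examined after 10 weeks of transverse aortic constriction (TAC), a narrowing of the aorta that raises the load on that chamber. There were 4 mice in each of the 4 groups, 2 males and 2 females, with 1 array per mouse. The baseline mice were intact, so surgery and load cannot be told apart.

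Values are log2 processed signal relative to the 75th percentile of the same array, so a value of 0 is that percentile. The percentile lay between 1053 and 1491 intensity units, and 44.5% to 68% of probes were well above background. Baseline arrays lay on slides 1 and 4 and TAC arrays on slides 2 and 3, so TAC and slide cannot be told apart. Slide 3, with replicates 3 and 4 of both TAC groups, was the only slide scanned on day 2. With scan day as a block, the TAC effect over both genotypes is therefore set by slide 2 against the baseline slides. On each slide the genotype and sex of a mouse fixed its position, so position and genotype cannot be told apart either. Nos3 lay between 7.63 and 8.02 in NOS3-TG baseline hearts and between 0.96 and 1.45 in WT baseline hearts. After TAC it lay between 6.94 and 7.77 in NOS3-TG and between 1.51 and 1.85 in WT. Its limma change with TAC was -0.48 ± 0.12 in NOS3-TG (adjusted p = 0.0207) and 0.41 ± 0.12 in WT (adjusted p = 0.0194). The Nos3 level was thus not constant across load in either genotype. All 10 cardiomyocyte markers passed the filter. The tissue is a section of whole ventricle, in which fewer cells of a type and less RNA per cell cannot be told apart. The number of arrays limits the precision, and the median standard error of a TAC change over all genes was 0.13 on the log2 scale.

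After TAC, the WT ventricle had less mRNA for 12 of the 28 measured carriers and more for 0. Over all 15667 genes, 17.6% were lower and 10.9% higher at the same threshold, a Benjamini-Hochberg adjusted p under 0.05 from limma. The members' share lower was 42.9%. Their median log2 change was -0.30, against -0.06 over all genes. In 9 members all 4 WT TAC arrays lay below all 4 WT baseline arrays, against 17.3% of all genes, and in 0 members they lay above them, against 10.2% of all genes. The falls reached furthest in the glutamate carrier Slc25a22, the carnitine-acylcarnitine carrier Slc25a20, the basic amino acid carrier Slc25a29 and the S-adenosylmethionine carrier Slc25a26. The ADP/ATP carriers Slc25a4 and Slc25a5 did not pass.

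**Figure D1:**
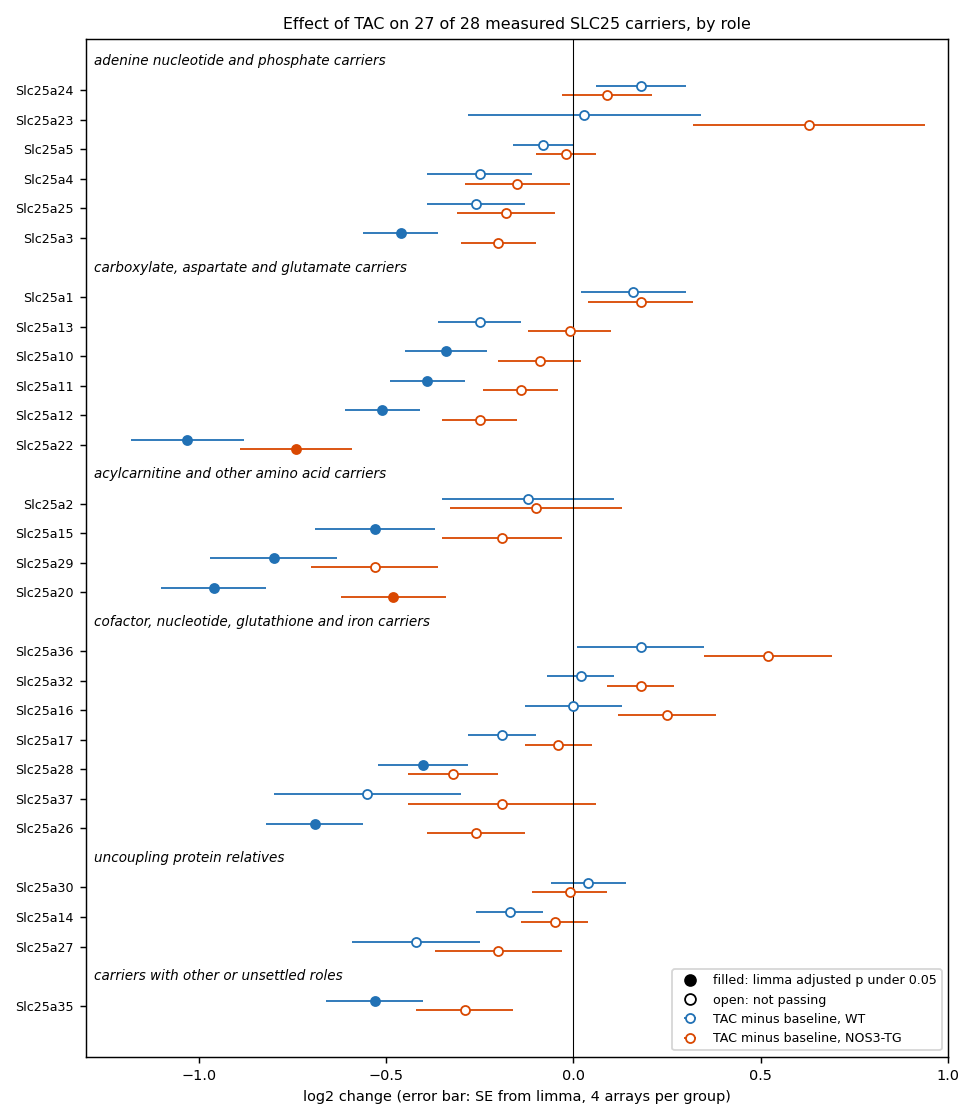
Log2 change from baseline to TAC (x axis) of 27 of the 28 measured carriers, grouped by role, in WT (blue) and NOS3-TG (orange). Points are limma estimates and bars their standard errors from 4 arrays per group, with filled points for an adjusted p under 0.05. In WT 11 points are filled, all left of 0, and in NOS3-TG the 2 filled points are Slc25a22 and Slc25a20.

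The carnitine-acylcarnitine carrier Slc25a20 exchanges acylcarnitines for free carnitine and so admits long-chain fatty acids to the matrix. It read 3.95, 4.18, 4.13 and 4.34 on the WT baseline arrays and 3.30, 3.30, 3.18 and 2.97 on the WT TAC arrays. All TAC arrays were lower than all baseline arrays. The change was -0.96 ± 0.14 (log2, with the limma SE over 4 arrays per group, adjusted p = 0.000582), so that the signal fell by 48.8%. In NOS3-TG hearts the arrays read 3.99, 3.41, 4.12 and 3.77 at baseline and 3.21, 3.38, 3.37 and 3.44 after TAC. The 2 groups overlapped through baseline replicate 2, the array with the lowest share of probes above background. The change in NOS3-TG was -0.48 ± 0.14 (adjusted p = 0.0436).

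The NOS3-TG call of Slc25a20 was not stable. It was lost when any of 11 of the 16 arrays was left out: NOS3-TG baseline replicate 1, 3 or 4, NOS3-TG TAC replicate 1, 2, 3 or 4, WT baseline replicate 2 or 3, or WT TAC replicate 1 or 3. The highest adjusted p among these fits was 0.122, without NOS3-TG baseline replicate 3. It was also lost under 6 other settings, among them scan day as a block (-0.45, adjusted p = 0.137). The WT call was kept in all 16 such fits.

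The amino acid carriers of the same list behaved as follows. Slc25a29, which carries arginine and lysine, read 1.53, 1.82, 1.34 and 1.41 in WT baseline hearts and 0.67, 1.07, 0.81 and 0.35 in WT TAC hearts. The groups did not overlap, and the change was -0.80 ± 0.17 (adjusted p = 0.00478). In NOS3-TG hearts it read 1.46, 1.01, 1.28 and 1.34 at baseline and 0.54, 1.13, 0.56 and 0.72 after TAC, a change of -0.53 ± 0.17 that did not pass (adjusted p = 0.0603). A second probe of Slc25a29 gave -0.66 ± 0.16 in WT (adjusted p = 0.0103) and -0.57 ± 0.16 in NOS3-TG (adjusted p = 0.0415). Slc25a29 also passed in NOS3-TG under other settings, such as array weights (adjusted p = 0.0175) and an intensity trend (adjusted p = 0.0453). With 1 array left out it passed there in 4 of 16 fits. The NOS3-TG call thus depended on the probe, the processing and the arrays.

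Slc25a15, the ornithine carrier of the urea cycle, was near background in the ventricle. It read -4.08, -3.66, -3.56 and -3.74 in WT baseline hearts and -4.46, -4.07, -4.59 and -4.06 in WT TAC hearts, where 1 of the 4 arrays was well above background. The groups overlapped slightly, at WT baseline replicate 1, and the change was -0.53 ± 0.16 (adjusted p = 0.0229). With normexp background correction it was -0.22 (adjusted p = 0.519). The call was also lost with scan day as a block (-0.43, adjusted p = 0.0999), with an intensity trend (adjusted p = 0.0746), with no filter (adjusted p = 0.0583), and without WT TAC replicate 3 (adjusted p = 0.064) or WT baseline replicate 3 (adjusted p = 0.0751). In NOS3-TG hearts Slc25a15 read -4.04, -4.23, -4.04 and -3.76 at baseline and -4.22, -3.85, -4.72 and -4.04 after TAC, overlapping groups that did not differ past the threshold (-0.19 ± 0.16, adjusted p = 0.469). Slc25a2, a relative of Slc25a15, did not pass in either genotype. Of the 4 tested carriers for acylcarnitine and other amino acids, 3 were thus lower in WT after TAC, with a median of -0.67. In NOS3-TG 1 was lower, with a median of -0.33. The shares of all genes lower were 17.6% in WT and 5.36% in NOS3-TG.

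Among carriers of carboxylates, aspartate and glutamate, 4 of 6 were lower in WT after TAC and 0 higher, with a median of -0.37. The shares of all genes were 17.6% lower and 10.9% higher. Slc25a22, which takes glutamate into the matrix with a proton, changed by the largest amount of all 28 members in WT. It read 0.59, 0.62, 0.45 and 0.73 in WT baseline hearts and -0.68, -0.02, -0.66 and -0.37 in WT TAC hearts. The groups did not overlap, and the change was -1.03 ± 0.15 (adjusted p = 0.000657), so that the signal fell by 51.1%. In NOS3-TG hearts the values were 0.21, -0.04, 0.27 and 0.44 at baseline and -0.81, -0.20, -0.37 and -0.71 after TAC. These groups did not overlap either, with a change of -0.74 ± 0.15 (adjusted p = 0.0097), and the call was kept with any 1 of the 16 arrays left out (highest adjusted p 0.0357).

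Slc25a22 and Slc25a20 were the 2 members called in both genotypes, and the 250 bases before their start sites are shown for that reason. For Slc25a20 the NOS3-TG call was not stable, and all 12 carriers called in WT were below 0 in NOS3-TG. Both stretches come from RefSeq on build GRCm38.p6, as do the other promoters given here. The Slc25a22 stretch, chr7:141437875-141438124 on the minus strand, lies before the most upstream of its 3 listed starts. The Slc25a20 stretch, chr9:108661886-108662135 on the plus strand, holds 1 ETS core motif, CCGGAAG, in capitals, whose first base lies 79 bases before the start.
Slc25a22: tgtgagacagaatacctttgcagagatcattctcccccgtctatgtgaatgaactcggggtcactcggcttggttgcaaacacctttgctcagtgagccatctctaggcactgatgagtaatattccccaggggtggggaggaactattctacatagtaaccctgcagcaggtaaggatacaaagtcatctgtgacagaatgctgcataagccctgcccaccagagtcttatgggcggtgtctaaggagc
Slc25a20: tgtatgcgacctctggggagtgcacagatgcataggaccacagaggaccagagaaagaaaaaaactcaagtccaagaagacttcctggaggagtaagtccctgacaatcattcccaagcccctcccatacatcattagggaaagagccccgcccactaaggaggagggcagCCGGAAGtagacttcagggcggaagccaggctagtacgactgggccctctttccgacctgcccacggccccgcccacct

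Slc25a11 and Slc25a12 belong to the malate-aspartate shuttle, which moves reducing equivalents from cytosolic NADH into the matrix. Slc25a11, which exchanges oxoglutarate for malate, read 7.14, 7.18, 7.13 and 7.21 in WT baseline hearts and 6.77, 6.91, 6.85 and 6.56 in WT TAC hearts. All WT TAC arrays were lower, and the change was -0.39 ± 0.10 (adjusted p = 0.00938). In NOS3-TG hearts Slc25a11 read 6.87, 6.69, 7.01 and 6.85 at baseline and 6.54, 6.77, 6.70 and 6.85 after TAC, and the change did not pass (-0.14 ± 0.10, adjusted p = 0.357). The NOS3-TG baseline arrays already lay below all 4 WT baseline arrays for this gene.

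Slc25a12, the aspartate-glutamate carrier of heart, muscle and brain, read 5.55, 5.49, 5.49 and 5.48 in WT baseline hearts and 4.99, 5.18, 5.02 and 4.75 in WT TAC hearts. These groups were far apart relative to their spread, and the change was -0.51 ± 0.10 (adjusted p = 0.0024). In NOS3-TG hearts it read 5.42, 5.25, 5.49 and 5.38 at baseline and 4.94, 5.23, 5.18 and 5.21 after TAC. The NOS3-TG groups did not overlap, yet the change of -0.25 ± 0.10 did not pass (adjusted p = 0.116).

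Slc25a13, the aspartate-glutamate carrier that predominates in liver, read 3.43, 3.63, 3.69 and 3.71 in WT baseline hearts and 3.23, 3.51, 3.29 and 3.44 in WT TAC hearts. The groups overlapped and the change did not pass (-0.25 ± 0.11, adjusted p = 0.1). In NOS3-TG hearts it read 3.43, 3.48, 3.66 and 3.57 at baseline and 3.45, 3.88, 3.26 and 3.50 after TAC, a difference of -0.01 ± 0.11 (adjusted p = 0.948). The sign of that difference turned under 4 alternative settings, at most to 0.08. Slc25a10, the dicarboxylate carrier for malate and succinate, was lower in WT after TAC (-0.34 ± 0.11, adjusted p = 0.0393) with overlapping groups, since WT TAC replicate 3 lay within the baseline range. That call was lost without NOS3-TG baseline replicate 1 or 4, WT baseline replicate 2, 3 or 4, or WT TAC replicate 1, 2 or 4 (highest adjusted p among these 0.0997), and under 8 other settings (highest adjusted p 0.117), among them scan day as a block (-0.39, adjusted p = 0.0538). Slc25a1, the citrate carrier, was above 0 in both genotypes without passing (0.16 ± 0.14 in WT, adjusted p = 0.457, and 0.18 ± 0.14 in NOS3-TG, adjusted p = 0.465).

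In WT after TAC, 17.6% of all genes were lower and 10.9% higher. Of the 6 tested carriers of adenine nucleotides and phosphate, 1 was lower (16.7%, near that share) and 0 higher. That gene was Slc25a3, which imports the phosphate used by ATP synthase. It read 6.76, 6.91, 6.91 and 7.02 in WT baseline hearts and 6.39, 6.54, 6.55 and 6.26 in WT TAC hearts. The groups did not overlap, and the change was -0.46 ± 0.10 (adjusted p = 0.00576), so that the signal fell by 27.5%. In NOS3-TG hearts Slc25a3 read 6.62, 6.48, 6.82 and 6.66 at baseline and 6.28, 6.62, 6.35 and 6.52 after TAC, with overlap and a change of -0.20 ± 0.10 (adjusted p = 0.218).

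Slc25a3 had 2 further probes. One gave -0.67 ± 0.10 in WT (adjusted p = 0.000625) and -0.34 ± 0.10 in NOS3-TG (adjusted p = 0.0415). The other, above background on 9 of the 16 arrays, gave -1.13 ± 0.51 in WT (adjusted p = 0.115). All 3 probes of Slc25a3 were below 0 in both genotypes, and they differed in whether the NOS3-TG change passed.

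Slc25a4 encodes the ADP/ATP carrier that predominates in heart and skeletal muscle. It read 8.71, 9.01, 8.96 and 9.08 in WT baseline hearts and 8.72, 8.69, 8.93 and 8.44 in WT TAC hearts. The groups overlapped, and the change of -0.25 ± 0.14 did not pass (adjusted p = 0.204). In NOS3-TG hearts the values were 8.78, 8.49, 9.0 and 8.77 at baseline and 8.45, 8.77, 8.44 and 8.77 after TAC, a change of -0.15 ± 0.14 (adjusted p = 0.508). A second probe gave -0.22 ± 0.13 in WT (adjusted p = 0.224).

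Slc25a5, the ADP/ATP carrier of most other tissues, read 6.06, 6.34, 6.13 and 6.45 in WT baseline hearts and 6.22, 6.18, 6.14 and 6.14 in WT TAC hearts. All WT TAC values lay within the baseline range (-0.08 ± 0.08, adjusted p = 0.536), and the sign turned to 0.07 with quantile normalization and 0.01 with the authors' values. In NOS3-TG hearts it read 6.28, 6.52, 6.35 and 6.46 at baseline and 6.33, 6.63, 6.16 and 6.41 after TAC (-0.02 ± 0.08, adjusted p = 0.908). No direction can be given for Slc25a5 after TAC. The ATP-magnesium/phosphate carriers Slc25a23, Slc25a24 and Slc25a25 ranged from -0.26 to 0.18 in WT, and 0 of 3 passed.

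The promoters of Slc25a3 and Slc25a4 are shown because both encode carriers that serve ATP synthesis and 1 of them fell. Capitals mark matches to the searched motifs. Slc25a3 (chr10:91123968-91124217, minus strand) holds the core motif of nuclear respiratory factor 1 (NRF1), read on the opposite strand, from 214 bases before the start, and an ETS motif from 175 bases before it. Slc25a4 (chr8:46211063-46211312, minus strand) holds an ETS motif from 130 bases before the start.
Slc25a3: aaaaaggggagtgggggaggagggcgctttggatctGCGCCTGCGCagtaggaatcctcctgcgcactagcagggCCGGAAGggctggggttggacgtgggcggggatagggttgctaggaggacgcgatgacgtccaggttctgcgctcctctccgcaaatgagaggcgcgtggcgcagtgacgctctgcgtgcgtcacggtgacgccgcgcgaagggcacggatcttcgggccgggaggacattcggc
Slc25a4: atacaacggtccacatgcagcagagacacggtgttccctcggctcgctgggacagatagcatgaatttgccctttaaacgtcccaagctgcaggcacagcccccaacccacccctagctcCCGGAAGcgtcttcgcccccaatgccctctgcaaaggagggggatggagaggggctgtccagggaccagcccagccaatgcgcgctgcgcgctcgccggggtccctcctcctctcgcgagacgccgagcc

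Motifs were searched on both strands of 300 bases, 250 before and 50 after each start, for the 25 of 32 members in the RefSeq table. Slc25a26 is among the 7 members without an entry. The ETS motif occurred in 5 of the 25 members (Slc25a3, Slc25a4, Slc25a17, Slc25a20 and Slc25a25), against 9.93% of all 27025 genes. The NRF1 motif occurred in Slc25a3 and Slc25a31, against 5.19% of all genes. The oestrogen-related receptor element TNAAGGTCA occurred in 0 of the 25 windows, against 1.43% of all genes. Of the 9 called carriers with a promoter, 2 held the ETS motif, and so did 3 of the 16 other members. A match is a description of letters and not a measured binding site.

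Among the 8 tested carriers of cofactors, nucleotides, glutathione and iron, 3 were lower in WT after TAC and 0 higher, with a median of -0.29. The shares of all genes were 17.6% lower and 10.9% higher. Slc25a26 brings S-adenosylmethionine, the methyl donor, into the matrix. It read 2.80, 2.71, 2.69 and 2.66 in WT baseline hearts and 1.91, 2.40, 1.83 and 1.97 in WT TAC hearts. All WT TAC arrays were lower, and the change was -0.69 ± 0.13 (adjusted p = 0.00274), with -0.64 ± 0.11 (adjusted p = 0.0016) from a second probe. In NOS3-TG hearts Slc25a26 read 2.59, 2.28, 2.65 and 2.44 at baseline and 1.96, 2.45, 2.19 and 2.34 after TAC, with overlap (-0.26 ± 0.13, adjusted p = 0.225).

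Slc25a28, a mitochondrial iron importer, was lower in WT (-0.40 ± 0.12, adjusted p = 0.0245) without overlap, and that call was lost without WT baseline replicate 1, 2 or 3 or WT TAC replicate 3 or 4 (highest adjusted p among these 0.0806). It was also lost with scan day as a block (-0.30, adjusted p = 0.111), with no filter (adjusted p = 0.0693) and with the compared groups alone (adjusted p = 0.055). Its relative Slc25a37, the iron importer that supplies haem synthesis, did not pass (-0.55 ± 0.25, adjusted p = 0.119).

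Slc25a36, a pyrimidine nucleotide carrier, came near a called rise in NOS3-TG. It read -0.41, -0.76, -0.52 and -0.55 in NOS3-TG baseline hearts and -0.20, -0.18, -0.16 and 0.38 in NOS3-TG TAC hearts. All TAC arrays were higher, and the change of 0.52 ± 0.17 did not pass (adjusted p = 0.0632). A second probe gave the same 0.52 with a standard error of 0.14 and passed (adjusted p = 0.0357). In WT the values for the gene were 0.18 ± 0.17 (adjusted p = 0.457). Slc25a23 had a larger estimate in NOS3-TG (0.63) that did not pass. It was near background, and its NOS3-TG baseline arrays ranged from -5.26 to -3.46.

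The uncoupling protein relatives Slc25a14, Slc25a27 and Slc25a30 ranged from -0.42 to 0.04 in WT, and 0 of 3 passed. Slc25a35, a carrier with an unsettled substrate, read -2.58, -2.11, -2.18 and -2.12 in WT baseline hearts and -2.69, -2.57, -2.89 and -2.96 in WT TAC hearts. WT baseline replicate 1 lay just below WT TAC replicate 2, and all other baseline arrays were higher than all TAC arrays. The change was -0.53 ± 0.13 (adjusted p = 0.0102), with -0.71 ± 0.15 (adjusted p = 0.00501) from a second probe, and -0.27 (adjusted p = 0.315) with normexp background correction. In NOS3-TG hearts it read -2.36, -2.59, -2.32 and -2.38 at baseline and -2.58, -2.51, -2.85 and -2.89 after TAC (-0.29 ± 0.13, adjusted p = 0.168).

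**Figure D2:**
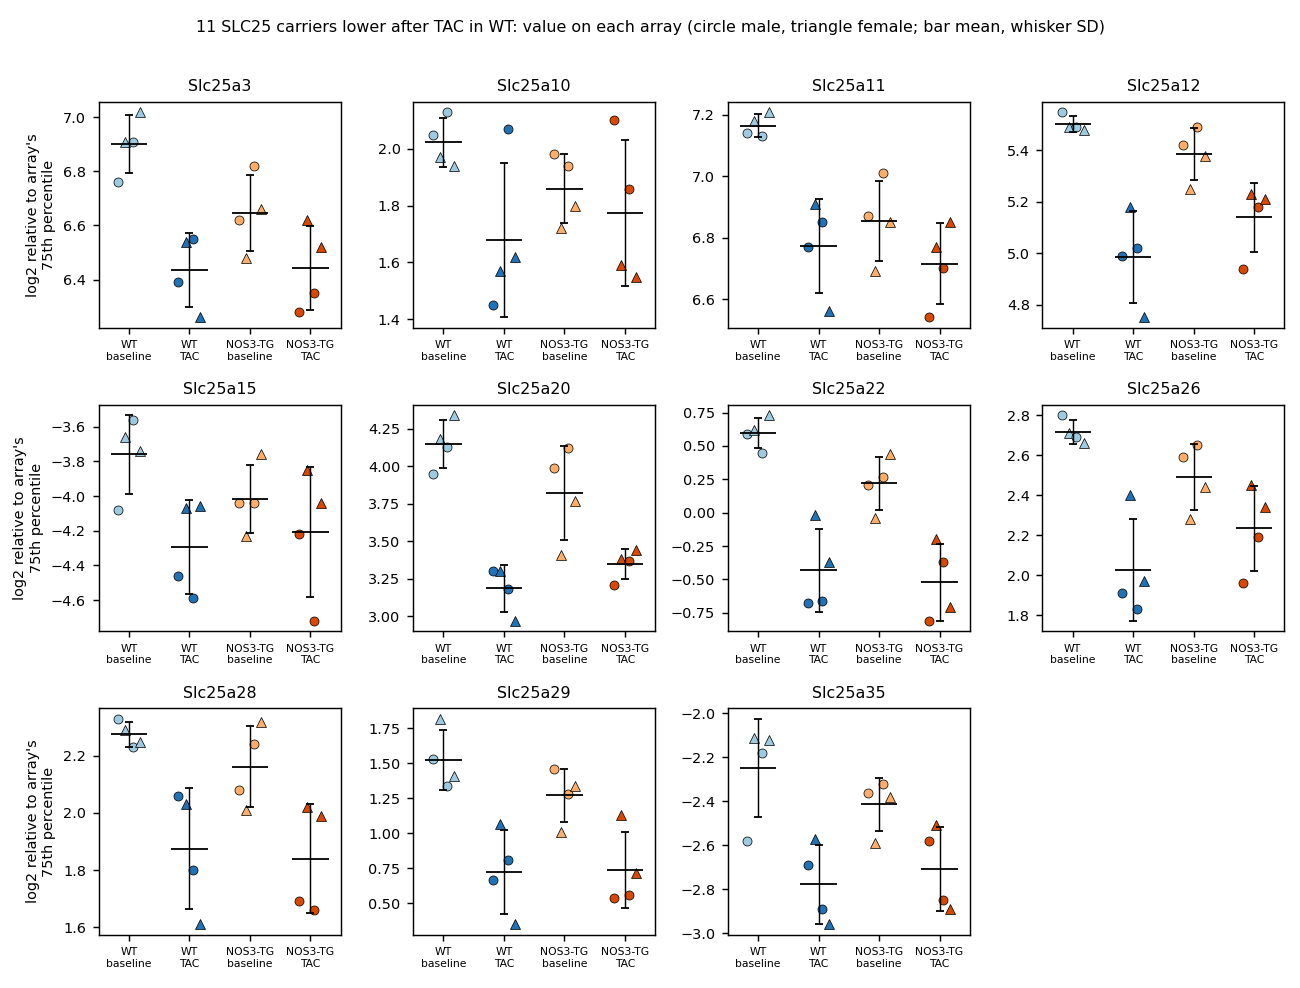
Log2 signal relative to each array's 75th percentile (y axis, own scale per panel) for 11 of the 12 carriers lower in WT after TAC, by group (x axis). Circles are males, triangles females, lines group means and whiskers SD over 4 arrays. In Slc25a20 the WT baseline arrays lie between 3.95 and 4.34 and the WT TAC arrays between 2.97 and 3.30.

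In 12 members with several passing probes, 14 of 16 further probes had the sign of the probe that stood for the gene, in each genotype. The exceptions were Slc25a24 and Slc25a30 in WT and Slc25a24 and Slc25a37 in NOS3-TG, none of them called. Slc25a17, a peroxisomal carrier of coenzyme A and related nucleotides, did not pass (-0.19 ± 0.09 in WT, adjusted p = 0.125), but its 2 further probes did (-0.52 ± 0.14, adjusted p = 0.0163, and -0.24 ± 0.08, adjusted p = 0.0331).

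In NOS3-TG hearts, 2 of the 28 carriers were lower after TAC and 0 higher, 7.14% of the members. Over all genes 5.36% were lower and 6.48% higher, so the members' share lower was near that of all genes. Their median change was -0.12, against 0.00 over all genes, and it was -0.07 without NOS3-TG TAC replicate 1 and -0.06 with quantile normalization. In 2 members all TAC arrays lay below all baseline arrays (7.46% of all genes), Slc25a22 and Slc25a12, and in 2 above (9.18% of all genes), Slc25a36 and Slc25a32, a carrier of folate or FAD. The count of 2 fell to 1 without any of 10 of the 16 arrays (NOS3-TG baseline replicate 1, 3 or 4, NOS3-TG TAC replicate 1, 3 or 4, WT baseline replicate 2 or 3, WT TAC replicate 1 or 3). The number called became 4 without WT TAC replicate 2 (3 lower, 1 higher) and 5 without WT TAC replicate 4 (4 lower, 1 higher).

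The TAC change was larger in size in WT than in NOS3-TG for 23 of 28 members, and 21 were below 0 in both. The matching shares of all genes are not given here. Calls over all genes were also more frequent in WT (17.6% lower, 10.9% higher) than in NOS3-TG (5.36% lower, 6.48% higher). A trait particular to the carriers is thus not shown by these counts. The 12 carriers called in WT had a median of -0.53 in WT and -0.25 in NOS3-TG, and all 12 were below 0 in NOS3-TG. Their WT median is set by the call itself. The difference of the TAC effects was then tested directly. For 0 of the 28 members, and 0 of 15667 genes, did limma give an adjusted p under 0.05. At an unadjusted p under 0.05 there were 3 members and 1167 genes. The members included Slc25a20 (difference 0.49 ± 0.20, adjusted p = 0.663) and Slc25a26 (0.43 ± 0.19, adjusted p = 0.664). The difference, NOS3-TG minus WT, was above 0 in 26 of 28 members (92.9%), against 61.3% of all genes, with a median of 0.24 against 0.07. Without the 3 arrays of extreme share above background these medians were 0.15 and 0.01. A difference above 0 stands for a smaller fall in NOS3-TG in some members and for a larger rise in others, such as Slc25a36 (0.18 in WT and 0.52 in NOS3-TG). A different response of the carriers to TAC in the 2 genotypes is therefore not shown by these arrays.

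At baseline, NOS3-TG and WT hearts differed past the threshold in 0 of the 28 carriers, against 0.415% of all genes, and 6 members had an unadjusted p under 0.05 (1927 of all genes). The estimates were below 0 in 25 of 28 members and in 9999 of all 15667 genes. The members' median was -0.17, against -0.06 over all genes. In 7 members all NOS3-TG arrays lay below all WT arrays, against 6.06% of all genes, and in 0 above them, against 3.89%. The smallest p belonged to Slc25a25, an ATP-magnesium/phosphate carrier, which read 0.77, 1.01, 0.84 and 1.08 in WT and 0.46, 0.52, 0.16 and 0.76 in NOS3-TG. The highest NOS3-TG array lay just below the lowest WT array. The difference was -0.45 ± 0.13 (adjusted p = 0.185). Next came Slc25a11 (-0.31 ± 0.10, adjusted p = 0.212) and Slc25a22 (-0.38 ± 0.15, adjusted p = 0.339).

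One array weighed on the baseline comparison. NOS3-TG baseline replicate 2, on which 44.5% of probes were well above background, was the lowest of its group for 22 of the 28 members. Without it the median genotype difference was -0.12, against -0.02 over all genes, with 23 members below 0 and 0 called. Within each of the 4 slides Slc25a25 was lower in NOS3-TG. The differences were -0.40 and -0.50 on the baseline slides and -0.28 and -0.45 on the TAC slides. Slc25a4 (-0.23 to -0.08) and Slc25a22 (-0.52 to -0.02) were lower on all 4 slides as well. These slides hold the same arrays by which Slc25a25 was picked, so they add no separate support. The part of array quality in the genotype differences was not tested.

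**Figure D3:**
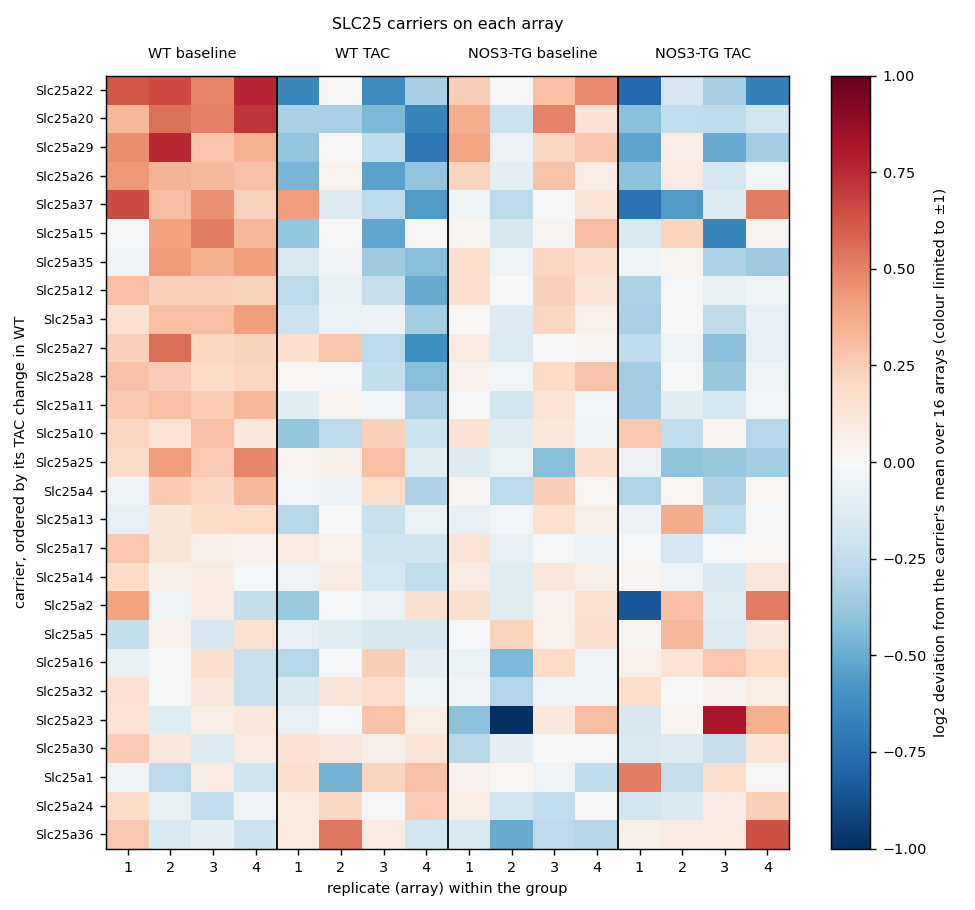
Deviation of each of 27 carriers (y axis, ordered by its TAC change in WT) from its own mean over 16 arrays, in log2 units limited to ±1, on each array (x axis, replicates 1 to 4 within 4 groups). Red is higher and blue lower. The upper carriers are red on the WT baseline arrays and mostly blue on the WT TAC arrays, and NOS3-TG baseline replicate 2 is the palest or bluest column of its group, lowest for 22 of 28 carriers.

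After TAC, 0 of the 28 carriers differed between the genotypes past the threshold, against 0.281% of all genes, and 4 had an unadjusted p under 0.05 (1922 of all genes). The estimates were above 0 in 19 members and below 0 in 9, while 51.7% of all genes were above 0. The members' median was 0.06 against 0.01 over all genes, and the groups overlapped in all 28. That lean rested on single arrays. Without WT TAC replicate 4 the estimates were above 0 in 14 and below 0 in 14 (median 0.02), and without NOS3-TG TAC replicate 2 or 4 in 17 or 16 members (median 0.03 each), whereas without WT TAC replicate 2 they were above 0 in 21 (median 0.10). Over all genes, 3.6% had all NOS3-TG arrays above all WT arrays and 1.95% below. The 3 smallest p-values included those of Slc25a25 (-0.37 ± 0.13, adjusted p = 0.274) and Slc25a5 (0.21 ± 0.08, adjusted p = 0.313). Slc25a5 was higher in NOS3-TG on all 4 slides, by 0.11 to 0.28. Since those slides hold the arrays by which it was picked, this adds no separate support. The 4 genotype and TAC comparisons share groups of arrays, so their values are not independent of each other.

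**Figure D4:**
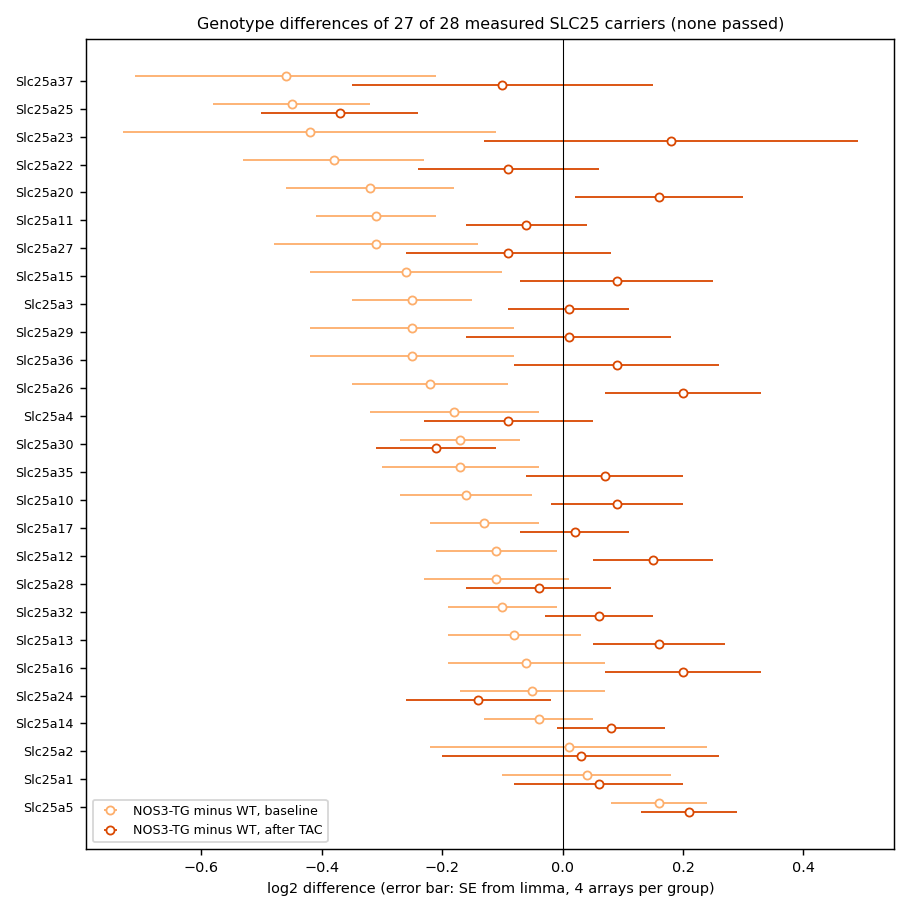
Log2 difference NOS3-TG minus WT (x axis) of 27 of the 28 carriers at baseline (light orange) and after TAC (dark orange). Points are limma estimates and bars standard errors, 4 arrays per group, and 0 of the 28 carriers passed in either comparison. Most baseline points lie left of 0, from -0.46 for Slc25a37, and Slc25a5 lies right of it in both comparisons (0.16 and 0.21).

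Between the sexes, over all groups, 0 of the 28 carriers passed, against 1.33% of all genes, and 4 had an unadjusted p under 0.05 (2496 of all genes). The smallest p belonged to Slc25a5 (females minus males 0.18 ± 0.06, adjusted p = 0.15), Slc25a10 (-0.23 ± 0.08, adjusted p = 0.179) and Slc25a1 (-0.27 ± 0.10, adjusted p = 0.205).

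A further 14 SLC25 genes stand in the array files under older names and were named through RefSeq. Any probe given the name Slc25a12 only through RefSeq was left out of this list, and no values are given for it. Of the 14 genes, 10 passed the filter. Against 17.6% lower and 10.9% higher over all genes, 4 of the 10 were lower in WT after TAC and 0 higher. They were the pyrimidine nucleotide carrier Slc25a33 (-0.81 ± 0.13, adjusted p = 0.001), the glycine carrier Slc25a38 (-0.55 ± 0.09, adjusted p = 0.00124), Slc25a46 of the outer membrane (-0.37 ± 0.12, adjusted p = 0.0334) and the coenzyme A carrier Slc25a42. Slc25a42 was well above background on 3 of 4 WT baseline and 0 of 4 WT TAC arrays. Measured against the lowest signal above background, its fall was at least 1.4-fold. No test was made of that bound. The call comes from the limma change (adjusted p = 0.00809), which uses the WT TAC readings that were not above background. Slc25a42 passed the filter mostly through its WT baseline arrays, so the filter itself favoured a fall in WT. Its place in the count of 4 therefore carries little weight. In NOS3-TG 0 of the 10 were higher (6.48% of all genes) and 2 lower (5.36%), among them Slc25a33 (-0.59 ± 0.13, adjusted p = 0.0128). The other call there was Slc25a42, which was above background on 1 of 4 arrays in each NOS3-TG group. That call rests mostly on readings not above background, and Slc25a42 receives no fold change there. Its mean readings were -3.83 at baseline and -4.69 after TAC, near the WT means of -3.61 and -4.67. A fall of Slc25a42 in WT alone is therefore not shown.

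The 26 tested genes for other proteins of mitochondrial transport outside the family had a median WT change of -0.28 after TAC. Of these, 12 were lower (17.6% of all genes) and 1 higher (10.9% of all genes). They included Cpt1b and Cpt2, which act on either side of Slc25a20 in the carnitine shuttle (-0.66 ± 0.15, adjusted p = 0.00645, and -0.88 ± 0.16, adjusted p = 0.00179), and the uncoupling protein Ucp3 (-1.71 ± 0.35, adjusted p = 0.00398). The gene that rose was Sfxn3, a sideroflexin (0.60 ± 0.16, adjusted p = 0.0146). In NOS3-TG 2 of 26 were lower (7.69%, near the 5.36% of all genes). These were Cpt2 (-0.56 ± 0.16, adjusted p = 0.0382) and the mitochondrial transporter Abcb8 (-0.46 ± 0.13, adjusted p = 0.0385).

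Carriers enter the inner membrane through the import proteins of the TOM and TIM22 pathway. The 12 tested import genes had a median WT change of -0.07 after TAC, near the -0.06 of all genes. Of the 12, 3 were lower (25%, against 17.6% of all genes) and 0 higher (10.9% of all genes). These were Tomm40, the pore of the outer membrane (-0.51 ± 0.09, adjusted p = 0.00201), and the TIM proteins Timm13 (-0.36 ± 0.07, adjusted p = 0.00334) and Timm22 (-0.34 ± 0.10, adjusted p = 0.0197). In NOS3-TG 0 of 12 passed, and 2 had an unadjusted p under 0.05 (4353 of all 15667 genes).

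Of 15 tested regulators of mitochondrial genes, 7 were lower in WT after TAC (17.6% of all genes) and 0 higher (10.9%). Their median change was -0.36. The largest falls were in the retinoid receptor Rxrg (-1.04 ± 0.16, adjusted p = 0.000752), the thyroid hormone receptor Thrb (-0.85 ± 0.19, adjusted p = 0.00643) and the coactivators Ppargc1a (-0.76 ± 0.21, adjusted p = 0.0179) and Ppargc1b (-0.62 ± 0.16, adjusted p = 0.0115). In NOS3-TG 1 of 15 was lower (6.67%, near the 5.36% of all genes), the fatty acid receptor Ppara (-0.58 ± 0.17, adjusted p = 0.0429).

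Markers of the cell types in the section also moved with TAC in WT. Beside the counts given here, 10.9% of all genes were higher in WT after TAC and 17.6% lower. The mean log2 value of 10 cardiomyocyte markers was 6.87 to 7.17 on WT baseline and 6.66 to 6.99 on WT TAC arrays, with 3 of 10 lower (Ryr2, Ckm and Pln) and 1 higher (Myh7). The means of 9 fibroblast markers were 3.01 to 3.72 and 3.59 to 4.16. Of these 9, 4 were higher (Postn, Col1a1, Col3a1 and Col1a2), and 3 had estimates below 0. Pdgfra, Dcn, Lum, Dpt and Tcf21 were not called. The means of 8 endothelial markers were 2.18 to 2.25 and 2.47 to 2.64 (4 higher). Those of 7 macrophage markers were 0.41 to 0.74 and 0.77 to 1.40 (4 higher). Of 5 smooth muscle markers 1 was higher and 1 lower, with means of 3.05 to 3.82 and 2.70 to 3.01. Of 6 adipocyte markers 5 passed the filter and 2 of them were lower (means -3.59 to -0.23 and -4.32 to -3.34), with Lep not passing. Of 8 erythroid markers 3 passed, and 0 changed (means 0.46 to 2.23 and 0.80 to 2.84). For NOS3-TG after TAC the shares of all genes were 6.48% higher and 5.36% lower. There 1 of 9 fibroblast (Postn), 1 of 8 endothelial and 2 of 7 macrophage markers were higher and 0 lower. Of the 5 smooth muscle markers 1 was higher there (Acta2, 1.30) and 2 lower (Myh11, -1.12, and Smtn, -0.46). Of the cardiomyocyte, adipocyte and erythroid markers 0 were called in NOS3-TG. At baseline the macrophage means were 1.19 to 1.35 in NOS3-TG, above all WT arrays, with 2 of 7 markers higher (0.332% of all genes). The part of a shift in cell types in the carriers' values was not tested.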

How the data were processed

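Total RNA from a section of the left ventricle of each mouse was labelled with Cy3 and hybridised to a one-colour Agilent array, per the labels' protocols. Per the file headers, the deposited intensity is the processed signal, background-subtracted but not normalized between arrays. Agilent Feature Extraction 9.5.1.1 made it, according to the submitters' processing notes. A deposited value table of the authors gives log2 values of 22057 probes, normalized in a way not given in the sources used here. It followed the log2 processed signal (r of at least 0.9996 across the probes of an array), with column medians of 9.95 to 9.99, and served as an alternative.

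Control and outlier spots were left out and repeated spots averaged. Genes were named through a RefSeq table of assembly GRCm38.p6 (22951 probes by accession, 9768 by symbol, 8455 keeping the file's name), and all member probes had the same name in both. Probe positions are not printed, since their build was not given in the files. From each log2 signal the array's 75th percentile was subtracted. A probe needed to be well above background on 4 of 16 arrays. Limma 3.58.1 (R 4.3.3) fitted 4 group means and sex over all 16 arrays, two-sided, with p-values adjusted over all 15667 genes by Benjamini-Hochberg and calls at 0.05. The fit was also run on simulated data with known changes in WT TAC and noise drawn independently for each array. Those data held no slide or scan day effects, so they cannot separate TAC from slide. Alternatives changed the normalization, background correction, filter, probes, weights, variance trend, sex term, groups fitted, slide and scan day blocks and arrays included. Figures were made with matplotlib 3.10.9.

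Members, role lists, tests and alternatives were chosen with earlier results of these data known. A fixed set of members was always given on every array, namely Slc25a3, Slc25a4, Slc25a5, Slc25a11, Slc25a12, Slc25a13 and Slc25a20, as were the 8 largest called falls in WT and the 6 largest calls per direction elsewhere. Where fewer than 3 members were called, the 3 with the smallest p are given. The values of 1 member, counted in the lists, are not reported here. Of the other lists up to 4 called genes by size are named. Slc25a36 and the single probes of Slc25a17 were picked after their values were seen, as was the list of genes named only through RefSeq.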

Additional observations from a re-analysis of the deposited data

Results flagged for a closer look

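Within a group of 4 arrays, 6 of 112 groups of member values held an array that stood far from the other 3 by Dixon's criterion, and chance gives about 1 in 20. Slc25a12 read 5.55 on WT baseline replicate 1, above 5.48 to 5.49 on the others, a gap that is small on the log2 scale. The same gene read 4.94 on NOS3-TG TAC replicate 1, below 5.18 to 5.23. Slc25a27 read -1.39 on WT baseline replicate 2, above -1.74 to -1.71. Slc25a32 read -0.52 on NOS3-TG baseline replicate 2, below -0.27 to -0.26, on the array with 44.5% of probes above background. Slc25a35 read -2.58 on WT baseline replicate 1, below -2.18 to -2.11, which makes the WT groups of that carrier overlap. Slc25a36 read 0.38 on NOS3-TG TAC replicate 4, above -0.20 to -0.16, on the array with 68% of probes above background.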

How the results depend on the processing

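The count of carriers lower in WT after TAC stayed between 9 and 14 over all alternatives, and between 9 and 13 with 1 array left out (9 without WT baseline replicate 3). The count of 2 in NOS3-TG became 1 with normexp, with no filter, with the compared groups alone, with slide as a random block, with scan day as a block and without the 3 arrays of extreme share above background. It became 4 with the authors' values (4 lower, 0 higher) and with a filter on all 16 arrays or the mean of all probes (3 lower, 1 higher each), and 7 (6 lower, 1 higher) with array weights. With 1 array left out it ranged from 1 to 5. The count between the sexes became 2 with array weights and ranged from 0 to 1 with 1 array left out (1 without WT TAC replicate 1). The genotype counts and the count for the difference of the TAC effects were 0 in every fit, for the latter also with slide as a fixed block, chosen after seeing the data. The causes were not tested.

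Signs reversed only where a member did not pass in that comparison. Slc25a5 in WT became 0.07 with quantile normalization and 0.01 with the authors' values. In NOS3-TG, Slc25a5 became 0.01 with quantile normalization, 0.04 with scan day as a block and 0.09 without the 3 arrays, and ranged from -0.08 to 0.03 with 1 array left out. Slc25a13 in NOS3-TG became 0.00 with quantile normalization, 0.06 with normexp and with scan day as a block, and 0.08 without the 3 arrays, and ranged from -0.12 to 0.06 with 1 array left out. Of 503 values of named members under other settings, 457 kept direction and side of the threshold, 23 lost and 14 gained a call, and 9 reversed.

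Without a filter the median of all genes in NOS3-TG moved from 0.00 to -0.15. Signal near background limits Slc25a15 and Slc25a2. No paired analysis by replicate number was possible because these numbers only follow the order of the samples. Genotypes were matched within slide instead, with slide as a fixed block, and 0 members were called at baseline and 0 after TAC.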
